A study of Mus musculus with 6 samples.

Results

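Gfi1, Gfi1b and the genes of their LSD1-CoREST-HDAC corepressor complex were followed in sorted adult mouse hematopoietic stem cells (HSCs). All probe sets with the platform symbol Gfi1, Gfi1b, Kdm1a, Rcor1, Rcor3, Hdac1 or Hdac2 were taken, which gave 17 of the 45037 probe sets tested and 7 of 18193 named genes. The comparison was of 3 arrays labelled PU.1 ki/ki from homozygous PU.1 knock-in mice with 3 from wild-type (WT) mice. All mice were adult, and both groups of cells had the sort phenotype lin-, Sca1+, cKit+, CD150+, CD48-, a phenotype of long-term HSCs. The transcription factor PU.1, of the ETS family, is encoded by Spi1, and the series asks, by its title, how its autoregulation bears on HSC proliferation. The labels do not describe the knock-in allele, the strain or the sex of the mice, nor how many animals each replicate came from, so the spread behind every p-value is that between these arrays and may be technical. In the mouse model published under this name, as background, a PU.1 binding site in an upstream regulatory element of Spi1 is mutated.

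Gfi1 and Gfi1b are zinc finger repressors with closely similar DNA-binding fingers. A short N-terminal SNAG domain in each binds the histone demethylase LSD1, encoded by Kdm1a, which acts in a complex with a CoREST scaffold (Rcor1 or Rcor3) and the histone deacetylases Hdac1 and Hdac2. In blood, Gfi1 is known for restraining HSC cycling and for granulocytic and lymphoid development, and Gfi1b for erythroid and megakaryocytic development and HSC quiescence. Both factors bind sites with the core AATC, and both repress their own and each other's genes.

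The promoter windows of the paired repressors are shown because their genes are the members known to carry sites for these factors. They are RefSeq sequences of the build GRCm38.p6, from 250 bases before to 50 bases after a gene start, read along the gene's strand (minus for both). Capitals mark AATC or its reverse complement GATT. The Gfi1b window lies at chr2:28621933-28622232, and Gfi1 has a window at each of 2 starts, at chr5:107725756-107726055 and chr5:107724294-107724593.
Gfi1b: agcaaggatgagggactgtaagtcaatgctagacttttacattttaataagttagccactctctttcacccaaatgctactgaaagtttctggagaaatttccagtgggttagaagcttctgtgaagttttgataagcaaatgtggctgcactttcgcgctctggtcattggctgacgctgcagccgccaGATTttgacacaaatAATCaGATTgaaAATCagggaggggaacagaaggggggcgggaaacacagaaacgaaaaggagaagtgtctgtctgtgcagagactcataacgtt
Gfi1, first start: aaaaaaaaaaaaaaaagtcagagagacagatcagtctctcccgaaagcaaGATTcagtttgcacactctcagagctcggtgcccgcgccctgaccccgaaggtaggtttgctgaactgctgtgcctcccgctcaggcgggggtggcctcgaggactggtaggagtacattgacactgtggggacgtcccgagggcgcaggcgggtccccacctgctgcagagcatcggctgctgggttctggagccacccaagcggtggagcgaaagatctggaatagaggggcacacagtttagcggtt
Gfi1, second start: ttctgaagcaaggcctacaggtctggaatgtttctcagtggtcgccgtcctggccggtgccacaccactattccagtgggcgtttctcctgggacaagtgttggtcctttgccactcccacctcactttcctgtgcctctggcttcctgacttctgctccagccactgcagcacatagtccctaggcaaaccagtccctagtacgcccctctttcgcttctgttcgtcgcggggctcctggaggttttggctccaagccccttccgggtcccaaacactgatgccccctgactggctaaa
The Gfi1b window held 4 AATC cores, at positions -60, -45, -40 and -33 from the start, counting the first of the 50 bases after it as 0. The first Gfi1 window held 1, at position -200, and the second held 0. AATC on either strand was in 73.1% of 32851 such windows of all genes, and 4 or more were in 10.1%. The PU.1-type core GAGGAA, searched on both strands, was in 0 of these 3 windows and in 28.3% of all windows, and the general ETS core GGAA, which 96% of all windows held, occurred 3 times in the Gfi1b window, 1 time in the first Gfi1 window and 5 times in the second, with 0 overlaps with an AATC core. Windows of Kdm1a, Rcor1, Rcor3 and Hdac2 were also matched, and they held 1 AATC core in Kdm1a and 0 in Rcor1, Rcor3 and Hdac2. No window of Hdac1 was among the sequences used, so it was not matched. These matches describe letters in a window, not bound sites.

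The arrays of the WT group were less alike than those of the PU.1 ki/ki group. Of probe sets with a median of at least 512 on the other 5 arrays, 0.119 to 0.219% per PU.1 ki/ki array lay at least 4-fold below that median, against 1.12% on WT replicate 1, 11.5% on WT replicate 2 and 11.3% on WT replicate 3. Among the control probe sets, 3' Gapdh signal over 5' signal came to 2.98 to 4.75 in the PU.1 ki/ki group, and to 3.36, 6.11 and 6.68 on WT replicates 1, 2 and 3. Xist, an RNA made from the inactive X, gave 4162 to 6496 on its brightest probe set in PU.1 ki/ki, against 6955, 16 and 2322 on WT replicates 1, 2 and 3. Xist is made in female cells and the labels give no sex. WT replicate 2, near the table's minimum for Xist, is also the array with the highest Gfi1 and the lowest Gfi1b, and the part of sex in these values was not tested. Kit, a receptor of the sorting gate, had intensities of 452 to 1368 in PU.1 ki/ki HSCs and 374 to 1622 in WT, and Slamf1, which encodes CD150, had intensities of 170 to 1525 against 42 to 440. Spi1 itself had intensities of 170, 212 and 161 in PU.1 ki/ki HSCs and 158, 195 and 199 in WT, a log2 difference of -0.03 with an adjusted p of 0.992 (limma). In whole sorted samples, fewer cells of a type and less RNA per cell cannot be told apart.

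No member passed the test between PU.1 ki/ki and WT HSCs. Gfi1 had lower mean intensity in PU.1 ki/ki, whereas Gfi1b, Hdac1 and the brightest of 3 Hdac2 probe sets had higher means, and the brightest probe sets of Kdm1a and Rcor3 differed by -0.11 and 0.01 on the log2 scale. Rcor1 differed by -0.09 or 2.25, depending on which probe set stands for it. Brightest here means the highest mean log2 value over the 6 arrays, and by mean intensity it would be the same probe set for every member but Rcor1. Each difference is the mean log2(intensity + 1) of PU.1 ki/ki minus that of WT, with the SE of a linear model fitted to all probe sets with limma, and the threshold was a Benjamini-Hochberg adjusted p of 0.05. Over all probe sets 0 passed (0%), with a lowest adjusted p of 0.4004. At an unadjusted p under 0.05 there was 1 member probe set of 17, that of Hdac1, against 8.28% of all probe sets, made up of 4.6% with a higher and 3.68% with a lower value in PU.1 ki/ki. That balance turned with scaling: 55.5% of these were higher as deposited, 41.0% once the arrays were quantile-normalized again and 42.8% once they were centred on their medians. That centring shifted the median difference over all probe sets to -0.105. Separation of the groups without overlap was seen in 2 member probe sets (11.8%), both higher in PU.1 ki/ki, against 12.1% of all probe sets (6.62% higher and 5.46% lower), so the members' share lay near that of the array as a whole. In all, 10 of the 17 were higher and 7 lower. Their median difference was 0.19, beside 0.002 over all probe sets. Of the 17, however, 14 had means above the median of all probe sets. With dim probe sets, those under that median, left out, the median difference over the remaining 22519 was 0.161. The members' 0.19 still counts their dim probe sets, so it and 0.161 are over unlike sets. A median of the 14 brighter member probe sets alone was not computed.

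**Figure D1:**
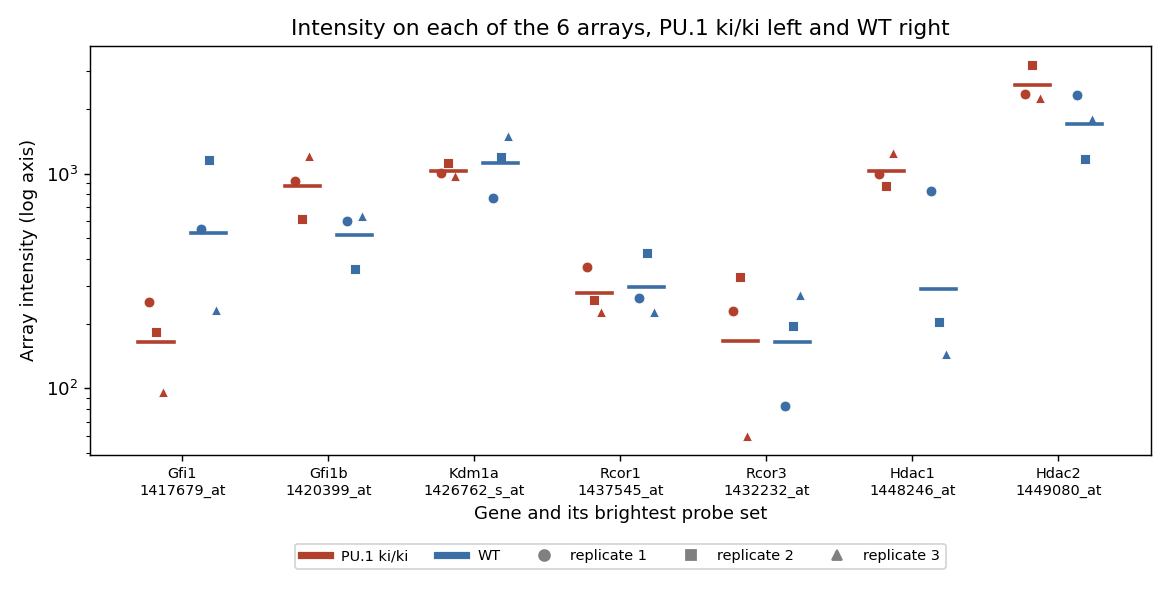
Array intensity on a log axis for the brightest probe set of each of the 7 genes, with PU.1 ki/ki on the left and WT on the right of each pair; symbols mark replicates and bars the back-transformed mean log2 value of 3 arrays. Gfi1 lies at 96 to 252 in PU.1 ki/ki against 232 to 1161 in WT, and Hdac1 at 880 to 1245 against 145 to 829; heights of different probe sets are not comparable as levels of different genes.

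Gfi1, which encodes the repressor known for restraining HSC cycling, was read by 1 probe set (1417679_at). It had intensities of 252, 183 and 96 on PU.1 ki/ki replicates 1 to 3, against 554, 1161 and 232 on the WT replicates. The groups overlapped by 1 array, since WT replicate 3 lay below PU.1 ki/ki replicate 1, and the WT values spanned a wider range. The means were 177 ± 78.2 in PU.1 ki/ki HSCs and 649 ± 472 in WT (SD, n = 3 each). The log2 difference was -1.69 ± 0.70 (SE, 95% interval -3.48 to 0.11), a 3.22-fold lower level in PU.1 ki/ki with an adjusted p of 0.613 (limma). An unadjusted p as low as that of Gfi1, 0.0609, was found for 9.92% of all probe sets. The two-sided exact permutation test over 20 regroupings gave p = 0.2, where 3 arrays against 3 allow no p below 0.1. WT replicate 2 was the highest array, 5.00 times the median of the other 5, and without it the difference was -1.12. It was -2.28 without WT replicate 3, and -1.75 (adjusted p = 0.492, limma) without both, where WT was a single array.

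Gfi1b, the paralogue with erythroid and megakaryocytic roles, was also read by 1 probe set (1420399_at). It had intensities of 922, 612 and 1207 in PU.1 ki/ki HSCs and 605, 360 and 633 in WT. WT replicate 3 lay above PU.1 ki/ki replicate 2, and otherwise the PU.1 ki/ki arrays were the higher ones. The means were 914 ± 298 in PU.1 ki/ki and 533 ± 150 in WT (SD, n = 3 each). The log2 difference was 0.77 ± 0.36 (SE, 95% interval -0.15 to 1.68), a 1.70-fold higher level with an adjusted p of 0.641 (limma). The two-sided exact permutation p was 0.2. The difference lay between 0.51 and 1.03 when single arrays were left out, with the lowest value without WT replicate 2, and was 0.54 without WT replicates 2 and 3.

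The values of both repressors ran in opposite order on several arrays. Within each group, replicate 3 had the lowest Gfi1 (96 in PU.1 ki/ki and 232 in WT) and the highest Gfi1b (1207 and 633). WT replicate 2 had the highest Gfi1 of all arrays (1161) and the lowest Gfi1b (360). PU.1 ki/ki replicate 2, in contrast, had the lowest Gfi1b of its group, at 612, and an intermediate Gfi1.

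Marker genes of the lineages in which the repressors act are set beside them here, and none passed the threshold. Of 8 neutrophil genes, a lineage in which Gfi1 acts, none was higher and 8 were lower in PU.1 ki/ki, with a median log2 difference of -0.42. Their summed intensity was 13461 to 19566 in PU.1 ki/ki, against 19175 to 27287 in WT. Ctsg, the granule protease cathepsin G, had intensities of 804, 822 and 806 in PU.1 ki/ki HSCs against 3739, 1527 and 2219 in WT (log2 difference -1.52, adjusted p = 0.482, limma). Of 7 megakaryocyte genes, a lineage in which Gfi1b acts, 6 were higher and 1 lower (median 0.71), with sums of 1882 to 3864 in PU.1 ki/ki and 1326 to 1931 in WT. Vwf, which encodes von Willebrand factor, had intensities of 815, 1435 and 1357 in PU.1 ki/ki HSCs against 617, 490 and 298 in WT (1.38, adjusted p = 0.508, limma). Vwf and Pf4 made up most of each sum, and Pf4 overlapped, with 544, 1562 and 1809 against 193, 671 and 960. The lower gene was Gp9 (-0.45), and the higher ones other than Vwf differed by 0.23 (Itga2b) to 1.21 (Pf4), all with overlap. Of 5 erythroid genes 1 was higher and 4 lower (median -0.51), with sums of 549 to 1002 against 503 to 1338. The higher one was Klf1, an erythroid transcription factor, with 118, 123 and 159 in PU.1 ki/ki against 42, 21 and 11 in WT (2.57, adjusted p = 0.463, limma). Among the lower ones Hba-a1, an alpha globin gene, had intensities of 36, 47 and 36 in PU.1 ki/ki HSCs against 65, 85 and 48 in WT, also without overlap (-0.69, adjusted p = 0.595, limma). No gene of these 3 marker lists was at the table's minimum of 10 on any array. Of 8 HSC markers 5 were higher and 3 lower (median 0.62), with sums of 6179 to 7551 in PU.1 ki/ki against 4144 to 7105 in WT. The sort was lin- and CD48-, a gate that should remove most mature blood cells. Of markers of such cells, 5 of 6 macrophage genes were higher, with sums of 352 to 1015 in PU.1 ki/ki against 191 to 201 in WT. Of these, C1qb read 567, 119 and 73 in PU.1 ki/ki and was at the table's minimum of 10 on all WT arrays. C1qc read 226, 54 and 41 against 13, 35 and 29, and Adgre1, counted as higher, 16, 18 and 14 against 25, 11 and 10. The 4 mast and basophil genes were all lower (sums of 72 to 111 against 145 to 254), as were the 5 B cell genes (303 to 347 against 195 to 790). Most of each B cell sum was Cd79b, with 224, 263 and 221 in PU.1 ki/ki against 102, 245 and 649 in WT. Cd79a, Pax5, Ms4a1 and Ebf1 were dim, at 11 to 63 over all arrays. Fcer1a, a mast and basophil gene, was at the minimum of 10 on PU.1 ki/ki replicates 1 and 3. Of 5 T and NK cell genes 2 were higher and 3 lower (318 to 427 against 417 to 697). Cd48, which the sort selects against, had intensities of 230, 90 and 290 in PU.1 ki/ki HSCs and 704, 193 and 75 in WT. The part of any of these cells in the Gfi1 and Gfi1b values was not tested.

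Kdm1a, which encodes the demethylase LSD1 that both SNAG domains bind, was close to equal in both groups. Its brightest probe set (1426762_s_at) had intensities of 1012, 1121 and 971 in PU.1 ki/ki HSCs and 771, 1202 and 1504 in WT. The PU.1 ki/ki values lay inside the WT range, with a log2 difference of -0.11 (95% interval -0.82 to 0.60, adjusted p = 0.932, limma). The other probe set (1426761_at) had intensities of 886, 1002 and 794 in PU.1 ki/ki HSCs and 1089, 861 and 1249 in WT, a difference of -0.24 (95% interval -0.74 to 0.25, adjusted p = 0.742, limma). In this fit both intervals left out a 2-fold change in either direction. The SEs, 0.28 for 1426762_s_at and 0.19 for 1426761_at, were 0.43 and 0.40 without dim probe sets, so this need not hold there. The brightest set turned to 0.42 when PU.1 ki/ki was compared with WT replicate 1 alone, and the other stayed at -0.29.

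**Figure D2:**
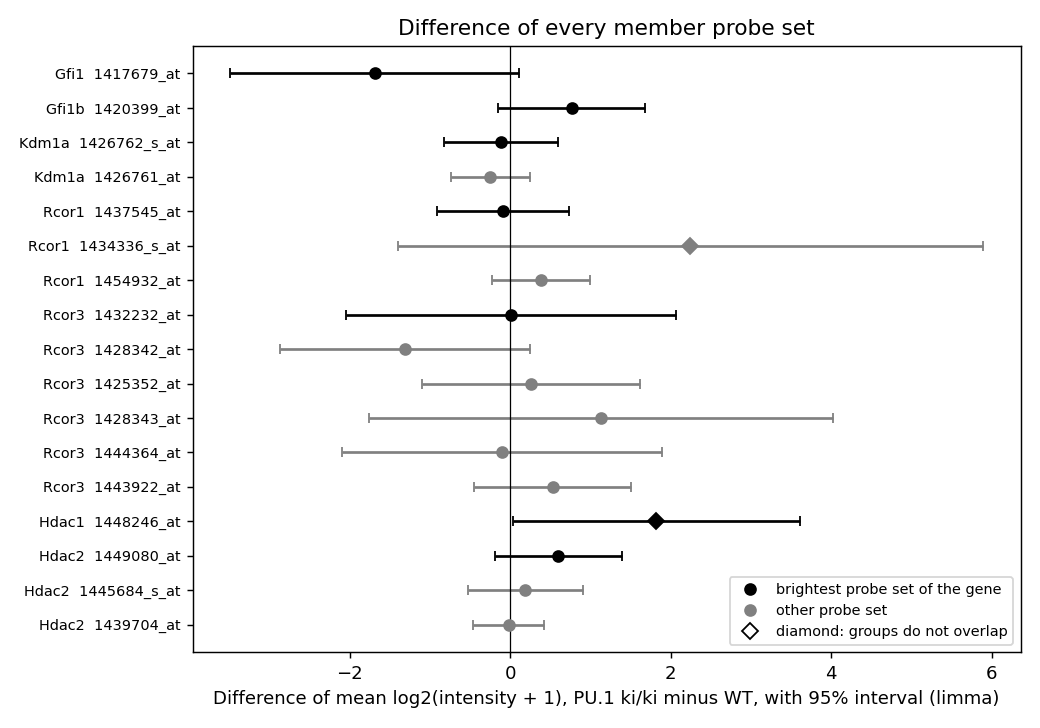
Log2 difference, PU.1 ki/ki minus WT, of all 17 member probe sets with its 95% interval; black marks the brightest probe set of a gene, grey the others, and diamonds the probe sets whose groups do not overlap. Only the interval of Hdac1, 0.03 to 3.61, leaves out 0, and the widest is that of Rcor1 1434336_s_at, from -1.40 to 5.89.

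Rcor1, the CoREST scaffold that couples LSD1 to the deacetylases, gave different answers on its 3 probe sets. The one with the highest mean log2 value (1437545_at) had intensities of 368, 257 and 227 in PU.1 ki/ki HSCs and 264, 427 and 228 in WT, a log2 difference of -0.09 (95% interval -0.91 to 0.74) with overlap. A further one (1434336_s_at) had intensities of 461, 399 and 578 in PU.1 ki/ki HSCs against 332, 10 and 272 in WT, where WT replicate 2 was at the table's minimum. It was brighter than 1437545_at on every array but WT replicate 2, and had the higher mean intensity. Its groups did not overlap, with a difference of 2.25 ± 1.42 (SE, adjusted p = 0.694, limma) that was 0.65 without WT replicate 2. The third (1454932_at) had intensities of 143, 106 and 152 in PU.1 ki/ki HSCs and 130, 86 and 92 in WT, a difference of 0.38 (95% interval -0.23 to 1.00), and 0.02 against WT replicate 1 alone. Over the 6 arrays the log2 values of 1437545_at correlated with those of 1434336_s_at and 1454932_at at -0.71 and -0.25, and 1434336_s_at and 1454932_at, both with higher means in PU.1 ki/ki, correlated at 0.71, a description of 6 points that share arrays.

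Rcor3, a CoREST paralogue, was read by 6 probe sets, 4 with a higher and 2 with a lower mean log2 value in PU.1 ki/ki, all with overlap and with adjusted p of 0.641 to 1 (limma). The brightest (1432232_at) had intensities of 229, 330 and 60 in PU.1 ki/ki HSCs and 83, 196 and 273 in WT, a log2 difference of 0.01 (95% interval -2.05 to 2.07). Its spread within each group was larger than the difference between the group means. The lowest unadjusted p was that of 1428342_at, which had intensities of 215, 64 and 60 in PU.1 ki/ki HSCs against 199, 364 and 176 in WT (-1.31, adjusted p = 0.641, limma). PU.1 ki/ki replicate 1 lay among the WT arrays on it, and without that array the difference was -1.90. Another probe set, 1428343_at, had intensities of 26, 304 and 33 in PU.1 ki/ki HSCs and 12, 49 and 40 in WT, so that its difference of 1.13 rested on PU.1 ki/ki replicate 2 and was 0.02 without it. The remaining ones differed by -0.10 to 0.53. Correlations between the 15 pairs of Rcor3 probe sets over the 6 arrays lay between -0.59 and 0.63.

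Hdac1, the deacetylase with a single probe set here (1448246_at), had the lowest p of the members. It had intensities of 1001, 880 and 1245 in PU.1 ki/ki HSCs and 829, 204 and 145 in WT. The groups did not overlap, but WT replicate 1 lay close to the PU.1 ki/ki arrays and WT replicates 2 and 3 far below them, at 0.232 and 0.165 of the median of the other 5 arrays. Both are arrays on which over 11% of bright probe sets lay at least 4-fold below that median, and Hdac1 was 1 of these on each. The means were 1042 ± 186 in PU.1 ki/ki and 393 ± 379 in WT (SD, n = 3 each). The log2 difference was 1.82 ± 0.70 (SE, 95% interval 0.03 to 3.61, unadjusted p = 0.0474, adjusted p = 0.602, limma). Without WT replicates 2 and 3 it was 0.31, and without WT replicate 1 it was 2.58.

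Hdac2, the paralogous deacetylase of the same complex, was read by 3 probe sets. The brightest (1449080_at) had intensities of 2354, 3223 and 2262 in PU.1 ki/ki HSCs and 2321, 1175 and 1800 in WT. The groups overlapped only through WT replicate 1, and the log2 difference was 0.60 ± 0.31 (SE, adjusted p = 0.657, limma), or 0.15 against WT replicate 1 alone. The next (1445684_s_at) had intensities of 2150, 1758 and 1882 in PU.1 ki/ki HSCs and 2341, 1715 and 1191 in WT, a difference of 0.19. The dimmest (1439704_at) had intensities of 50 to 64 in PU.1 ki/ki HSCs and 48 to 62 in WT (-0.01). On the brightest probe set of each deacetylase, WT replicate 1 was the WT array nearest to the PU.1 ki/ki arrays.

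**Figure D3:**
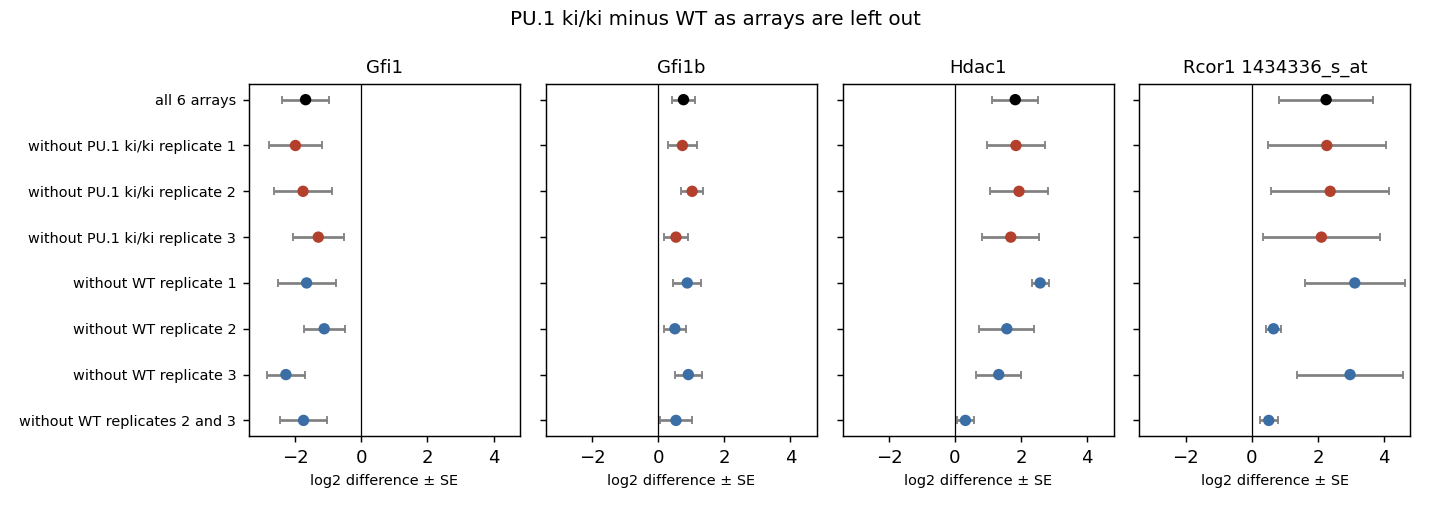
Log2 difference, PU.1 ki/ki minus WT, of 4 member probe sets with all 6 arrays, without each array in turn and without WT replicates 2 and 3; bars are SEs of the limma fit. Gfi1 stays between -2.28 and -1.12 and Gfi1b between 0.51 and 1.03, whereas Hdac1 comes to 0.31 without WT replicates 2 and 3 and Rcor1 1434336_s_at to 0.65 without WT replicate 2.

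Other genes of the pathway were taken as 3 lists, with the brightest probe set of each gene, and values with ± are means and SDs of 3 arrays. Of 21 measured partners of LSD1-CoREST or of SNAG-domain factors, 13 had a higher and 8 a lower mean log2 value in PU.1 ki/ki, with a median log2 difference of 0.14 beside 0.006 over all named genes, 0 past the threshold, 0 at an unadjusted p under 0.05 (limma) and 0 without overlap between groups. Over all named genes 8.61% had an unadjusted p under 0.05 and 12.7% did not overlap (6.33% higher and 6.39% lower). Without dim probe sets the median was 0.205 for the 18 partners left, beside 0.161 over all probe sets left. Ajuba, a LIM protein that binds SNAG-domain repressors, had intensities of 68.7 ± 16.3 in PU.1 ki/ki HSCs and 37.7 ± 25.5 in WT (1.01), and the ETO-family corepressor Cbfa2t3 had 2396 ± 240 against 1803 ± 568 (0.45). Its relative Cbfa2t2 had intensities of 286 ± 137 in PU.1 ki/ki HSCs against 470.0 ± 117 in WT (-0.79), and the SNAG-domain factor Snai2 read 19.7 ± 2.52 against 33.0 ± 19.98 (-0.57). Without WT replicates 2 and 3 the list stood at 9 higher and 12 lower.

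The class I deacetylases outside the member list and subunits of their other complexes (NuRD, Sin3, NCoR and MiDAC) gave 15 higher and 11 lower of 26, with a median of 0.08. None passed, 2 higher and 1 lower had an unadjusted p under 0.05 (limma), and 5 higher and 2 lower did not overlap between groups, beside 8.61% and 12.7% of all named genes. Mbd2, the methyl-CpG-binding subunit of NuRD, had intensities of 484, 956 and 1386 in PU.1 ki/ki HSCs against 3203, 2081 and 2617 in WT (-1.59, adjusted p = 0.510, limma). Its WT arrays were all above its PU.1 ki/ki arrays, WT replicate 1 most of all. Sin3a, the scaffold of the Sin3 complex, had intensities of 534 ± 186 in PU.1 ki/ki HSCs against 1183 ± 550 in WT (-1.11). Gatad2b, another NuRD subunit, read 3352 ± 1279 against 1181 ± 553 (1.56), and Sap30, of the Sin3 complex, 643 ± 93.0 against 409 ± 77.4 (0.66). After a further quantile normalization the list stood at 12 higher and 14 lower.

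Genes described in earlier work as repressed by Gfi1 or Gfi1b included 19 that were measured, 6 with a higher and 13 with a lower mean log2 value in PU.1 ki/ki, with a median of -0.33. None passed the threshold, 1 higher and 3 lower had an unadjusted p under 0.05 (limma), and 1 higher and 4 lower did not overlap, beside the same 8.61% and 12.7% of all named genes. Myc, which drives cell growth, had intensities of 3482, 3084 and 3553 in PU.1 ki/ki HSCs against 1668, 2115 and 1867 in WT (0.84, adjusted p = 0.430, limma). Tgfbr3, the betaglycan coreceptor of TGF-beta and a described Gfi1b target, had intensities of 237, 279 and 281 in PU.1 ki/ki HSCs against 708, 736 and 418 in WT (-1.18, adjusted p = 0.469, limma). All 3 WT arrays were above all PU.1 ki/ki arrays on it. Socs1, a suppressor of cytokine signalling, read 39.0 ± 3.61 against 63.0 ± 12.8 (-0.66), and the homeobox gene Meis1 read 933 ± 819 against 475 ± 298 (0.83), with overlap. Socs3, named after its values were seen, read 13, 31 and 12 in PU.1 ki/ki, close to the table's minimum, against 820, 73 and 60 in WT. The count was 5 higher and 14 lower without WT replicates 2 and 3, and 3 and 16 after a further quantile normalization. Without WT replicate 2 alone it was 7 and 12. Without dim probe sets 16 genes were left, 6 higher and 10 lower, and their median was nearer to zero, at -0.194. Leaving out WT replicate 1 brought the median to -0.197.

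**Figure D4:**
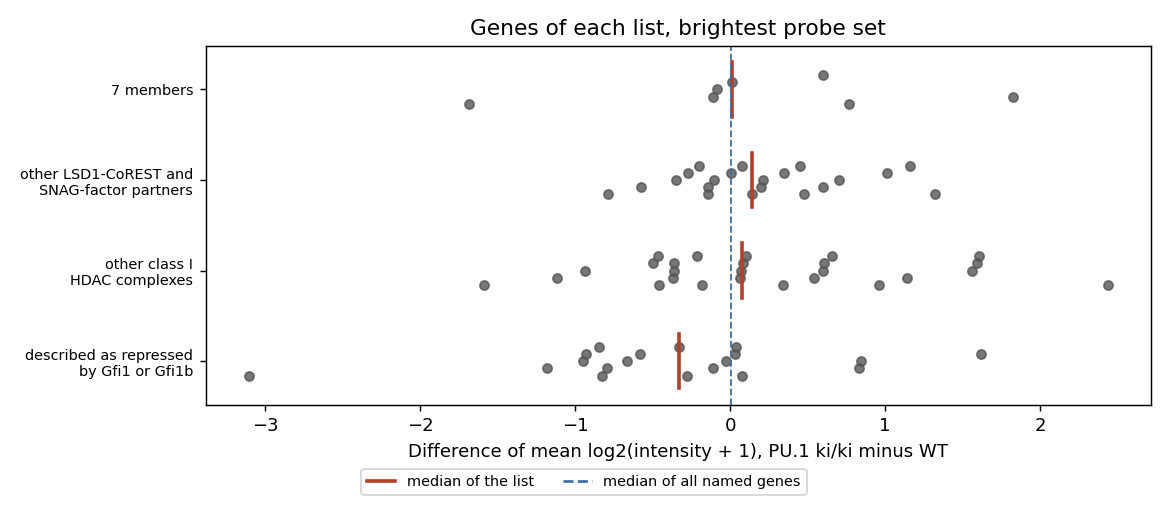
Log2 difference, PU.1 ki/ki minus WT, of the genes of 4 lists on the brightest probe set of each; red lines are list medians and the dashed line is the median of all named genes, 0.006. The medians are 0.01 for the 7 members (0.60 with Rcor1 taken as 1434336_s_at), 0.14 for other LSD1-CoREST partners, 0.08 for other class I HDAC complexes and -0.33 for genes described as repressed by Gfi1 or Gfi1b.

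The genes whose values over the 6 arrays were most like those of Gfi1 were Trmt1 (Pearson r of log2 values 0.991), Gnai1 (0.983), Dmtn (0.983), Jcad (0.982) and Foxo3 (0.981). Foxo3, a transcription factor of HSC quiescence, had intensities of 1547, 1416 and 1216 in PU.1 ki/ki HSCs and 2138, 2280 and 1526 in WT, a much narrower range than that of Gfi1. For Gfi1b they were Tcof1 (0.997), Nfia (0.995), 4930542D17Rik (0.992), Plxna4 (0.984) and Lrig1 (0.982). Nfia, a transcription factor with a role in erythroid development, had intensities of 193, 94 and 298 in PU.1 ki/ki HSCs and 112, 40 and 102 in WT. These were picked from 19571 probe sets on 6 shared arrays, where 38 for Gfi1 and 39 for Gfi1b had r above 0.95, and they describe a ranking only.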

How the data were processed

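Each of 6 single-colour arrays holds total RNA of sorted HSCs, with groups and replicate numbers from the sample titles. The free-text description of each sample speaks of embryos, against every other label, and was set aside. The deposited values are intensities, 1 per probe set and array, for which RMA is named per the submitters' processing notes, without a version. They are whole numbers on a linear scale with a minimum of 10; how RMA values came to a linear scale with this floor is not given in the sources used here. Values at the floor have no order. Of 45101 entries 64 control probe sets were left out. Symbols came from the platform annotation, which names 34945 probe sets by 1 symbol; of the 932 listed under several genes 0 held a member.

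A linear model with genotype as its term was fitted to log2(intensity + 1) of all 45037 probe sets in R 4.3.3 by lmFit and eBayes of limma 3.58.1, and p-values were Benjamini-Hochberg adjusted over all of them. The added 1 understates differences of dim probe sets. The number of arrays limits the precision. All member probe sets were named; of each list, at most the 2 higher and 2 lower genes with the lowest p, and of likeness the 5 highest Pearson r among probe sets with 1 symbol and a mean above the median. Probe sets with the suffix s_at can match several transcripts. The members and lists were chosen with earlier results of these data known. Same-numbered arrays of both groups did not deviate together (correlations of -0.017 to 0.021), so the replicate number was used as a block only as an alternative. Figures were drawn with matplotlib 3.10.9.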

Additional observations from a re-analysis of the deposited data

How the results depend on the processing

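Of 237 member differences recomputed under the alternatives 0 passed an adjusted p of 0.05 (limma), 214 kept their direction and 23, from 8 probe sets, turned it. The other 9 probe sets, those of Gfi1, Gfi1b and Hdac1 among them, kept theirs in every setting run. For differences that turned the cause was not tested. The count of member probe sets at an unadjusted p under 0.05 was 1 as deposited and with log2(intensity + 16). It was 2, Gfi1 and Hdac1, with either scaling, without dim probe sets, with a trended and robust prior or with array weights. With the replicate number as a block it was also 2, Gfi1 and Gfi1b, although the labels name no pairing of the arrays. Over all 45037 probe sets 3165 to 3801 had such a p in these settings, and 1701 of 22519 without dim probe sets. The member count lay between 0 and 3 when single arrays were left out, beside 2535 to 7183 of all probe sets. The 3 came without WT replicate 1, the setting with 7183. The count without overlap, 2, was 4 after quantile normalization (12.6% of all probe sets) and 2 after median centring (19.5%), where Gfi1 took the place of Hdac1. It was 3 to 7 without single arrays (18.2 to 30.3%) and 11 without WT replicates 2 and 3, where fewer arrays overlap less often by construction (51.5% of all probe sets). Without those 2 arrays, differences turned to 0.42 (Kdm1a 1426762_s_at), 0.074 (Rcor1 1437545_at), -0.27 (Rcor3 1443922_at), 1.07 (Rcor3 1444364_at) and -0.28 (Hdac2 1445684_s_at). Rcor3 1432232_at turned to -0.18 after quantile normalization and -0.10 after median centring, and Rcor3 1444364_at to 0.060 with array weights. With single arrays left out, the ranges of those that turned were -0.38 to 0.10 (Kdm1a 1426762_s_at), -0.29 to 0.18 (Rcor1 1437545_at), -0.48 to 0.74 (Rcor3 1432232_at), -0.23 to 0.79 (Rcor3 1425352_at), -0.72 to 0.33 (Rcor3 1444364_at), -0.13 to 0.066 (Hdac2 1439704_at) and -0.059 to 0.43 (Hdac2 1445684_s_at). The 3 Rcor3 probe sets 1428343_at, 1444364_at and 1443922_at have means under the median of all and could not be given without dim probe sets. Gfi1 and Gfi1b have 1 probe set each, so a mean over probe sets left their differences at -1.69 and 0.77. With the probe set of highest mean intensity standing for each gene, chosen after seeing the data, the median of the 7 members was 0.60, against 0.01, through Rcor1 alone, and the counts of the 3 gene lists were the same. For arrays no depth applies, and 3 arrays per group limit the precision.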

Other observations

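The log2 ratio of the Gfi1 to the Gfi1b probe set within an array, looked at after both values were seen and not tested, came to -1.87, -1.74 and -3.64 for PU.1 ki/ki replicates 1, 2 and 3, against -0.13, 1.69 and -1.44 for the WT replicates. All PU.1 ki/ki arrays lay below all WT arrays on it, although each gene alone overlapped. The nearest values were -1.74 and -1.44. The ratio was formed from a lower Gfi1 and a higher Gfi1b already seen, which favours separation, so it adds no evidence to that of each gene. No share over other pairs of probe sets was computed. The ratio's zero has no meaning across probe sets, so that only differences between arrays can be read.

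The log2 values of 12 of the 17 member probe sets (70.6%) had a larger SD over the WT arrays than over the PU.1 ki/ki arrays, close to the 71.7% of all probe sets. The exceptions were Gfi1b (0.49 in PU.1 ki/ki and 0.45 in WT) and 4 of the 6 Rcor3 probe sets.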
